A study of Homo sapiens with 2 samples.

Results

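The 38 genes described here are the HIF transcription factors, genes known to be activated by them and the enzymes of glycolysis, listed by name for their function. They were followed in U251, a line of human glioma cells grown in DMEM with fetal serum, on Affymetrix HG-U133_Plus_2 arrays, where each transcript is read by one or more sets of short probes. The series compared 1 array of U251 cells transfected to over-express miR-31, a microRNA, with 1 array of U251 cells transfected with a control. The labels name no construct, no time after transfection and no oxygen level, and both groups are of a single cell line. Of the 38 genes, 37 had a probe set carrying only their symbol (CA9, a carbonic anhydrase, had none and was not analysed here), and 35 reached the level minimum for a comparison (62.6 averaged over the arrays, the median over probe sets), out of 11792 genes compared. ANGPTL4 and ALDOC were the 2 below that minimum.

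HIF (hypoxia-inducible factor) is a pair of proteins, an oxygen-sensitive alpha subunit (HIF1A or EPAS1) and the stable partner ARNT. With oxygen present, prolyl hydroxylases of the EGLN family mark the alpha subunit, the VHL ubiquitin ligase removes it, and HIF1AN blocks what remains from recruiting co-activators. When oxygen is short the alpha subunit accumulates, binds DNA at a short core reading ACGTG or GCGTG, and switches on genes for vessel growth, glucose uptake, glycolysis and its own hydroxylases. In gliomas this programme is known from the hypoxic tissue around necrosis. Much of the control of HIF acts on the protein, which these arrays do not measure.

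The overexpressed microRNA is printed here because it is the only agent that the labels say differs between the arrays. RefSeq places hsa-miR-31-5p on GRCh38.p14 at chr9:21512158-21512178, minus strand, and the capitals mark its seed (bases 2 to 8), the part that pairs with targets. The labels give no arm of the hairpin, and no target sites were searched.
hsa-miR-31-5p: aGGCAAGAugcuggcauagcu

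Of the 35 hypoxia and glycolysis genes compared, 3 (VEGFA, LOX and BHLHE40) were higher by 2-fold or more after miR-31 transfection, and 0 were lower by as much. This is 8.57% of them, beside 3.74% of all 11792 genes that were at least 2-fold higher and 1.58% at least 2-fold lower. A ratio is the value of the miR-31 array less that of the control on the log2(intensity + 16) scale, so 1 is 2-fold, and this scale understates the change of dim genes. These counts depend on the setting: the number higher became 0 on scales set by the hybridisation or the poly-A spikes, 1 when all kept probe sets of a gene were averaged and 1 without probe sets named _s_at or _x_at, and the number lower became 3 on the poly-A scale. The remaining 32 genes lay within 2-fold, 17 of the 35 were above 0 and 18 below, and their median log2 ratio was -0.0035, against 0.03 for all genes. With 1 array a group there is no replicate check, no test was made, and every value compares 2 RNA samples.

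**Figure D1:**
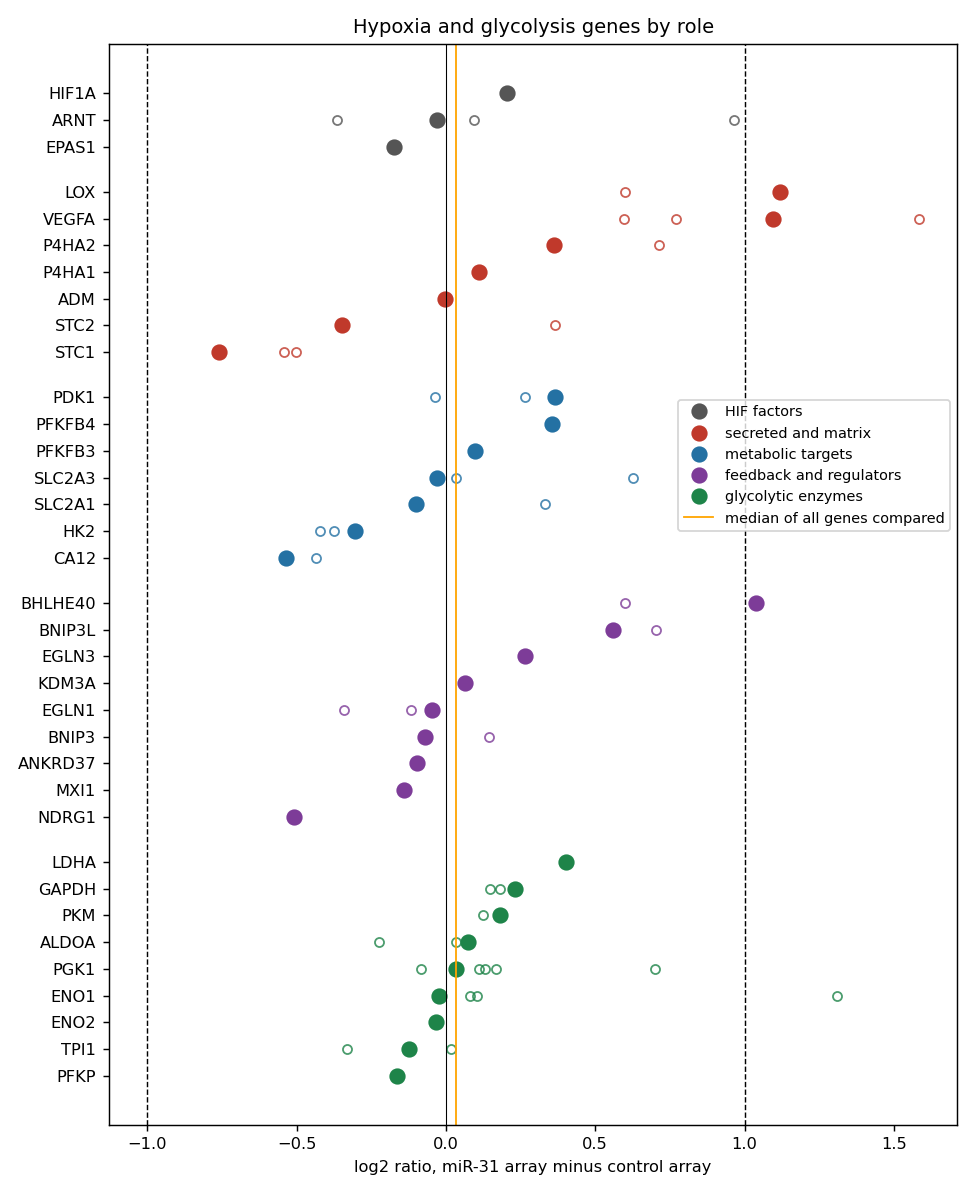
Log2 ratio (miR-31 minus control, horizontal axis) of the 35 genes compared, grouped by role, with the brightest probe set of each gene as a filled point and its other kept probe sets as open points. The dashed lines mark 2-fold either way and the orange line the median of all genes (0.03); LOX, VEGFA and BHLHE40 lie beyond 1, and STC1 has the lowest ratio (-0.76).

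At 1.5-fold the same 3 genes were higher and 1, STC1, was lower, with 31 of 35 inside 1.5-fold. The shares, 8.57% and 2.86%, lay below those of all genes at this threshold, 11.7% higher and 6.72% lower. The members are read by brighter probe sets than most genes, and 17 of the 35 fell in the brightest 25% of genes. In that class 1.26% of genes were at least 2-fold higher and 1.19% at least 2-fold lower, and of the 17 members there 1 was higher (BHLHE40) and 0 lower. As a gauge of noise, the SD of the ratio of 1 probe set was 0.34, from the disagreement inside the 3142 genes that had exactly 2 kept. It leaves out differences between cultures, and it pools genes of every level past the minimum, so it need not hold for bright genes. Within 1 such SD of 0 lay 23 of the 35 members (65.7%), against 59.6% of all genes, and beyond 2 SD lay 4 members (11.4%), against 13.9% of all genes.

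The deposited arrays had been set to one scale, since the mean intensity without the lowest and highest 2% of probe sets was 500.1 on each, so this equality is no check of the RNA. The spike-in controls lay higher in the miR-31 array, and centring on them shifts every ratio by -0.19 (hybridisation controls) or -0.55 (poly-A controls). Of 7 glioma and astroglial markers 6 passed the level minimum, among them VIM at 34112 in the miR-31 array and 29992 in the control array. GFAP, the astrocyte filament, had 3624 in the miR-31 array and 2007 in the control array (0.85), and 464 and 220 on its second kept probe set (1.03). S100B was below the minimum. NES, the intermediate filament nestin, went the other way on its brightest probe set, with 5877 in the miR-31 array and 11039 in the control array (-0.91). Its second kept probe set differed little, with 889 in the miR-31 array and 872 in the control array (0.03). CD44, a hyaluronan receptor, was lower by less than the noise gauge, at -0.24 with 7 of its 10 kept probe sets lower. The leukocyte marker PTPRC was below the level minimum, at 17.0 in the miR-31 array and 30.1 in the control array. Of the 5 leukocyte markers with a probe set 2 passed. CSF1R had 101 in the miR-31 array and 75.9 in the control array (0.35), and ITGAM had 61.4 and 76.2 (-0.25). Of 4 endothelial markers 2 passed. KDR, a VEGF receptor, had 281 in the miR-31 array and 539 in the control array (-0.90), and PECAM1 had 124 and 121 (0.03). Probe sets at the 3' end of GAPDH, divided by those at its 5' end, gave 1.01 in the miR-31 array and 0.95 in the control array. The same quotient for ACTB was 2.17 in the miR-31 array and 2.39 in the control array. The part of these differences in the results was not tested. In RNA from a whole culture, fewer cells expressing a gene and less of its RNA per cell cannot be told apart.

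The transcripts of the HIF factors themselves differed little between the arrays. HIF1A, the alpha subunit stabilised in most hypoxic cells, had an intensity of 17523 in the miR-31 array and 15214 in the control array, a log2 ratio of 0.20. EPAS1, the second alpha subunit (HIF-2 alpha), had 3896 in the miR-31 array and 4399 in the control array (-0.17). The alpha subunits thus lay on opposite sides of 0, each by less than the noise gauge of 0.34. The gauge was not computed for bright genes alone. ARNT, their shared partner, had 381 in the miR-31 array and 389 in the control array (-0.03). Its 4 kept probe sets did not all have one sign and ran from -0.36 to 0.96, the highest being dim in the control array.

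The secreted and matrix genes held the largest ratios in both directions. VEGFA, the growth factor for blood vessels, had 2334 in the miR-31 array and 1085 in the control array on its brightest probe set, a log2 ratio of 1.09. Its 3 other kept probe sets had 571, 197 and 123 in the miR-31 array and 373, 109 and 30.4 in the control array, with ratios of 0.60, 0.77 and 1.58. All 4 were higher in the miR-31 array. The dimmest, with the ratio of 1.58, was under the level minimum in the control array and passed only through the miR-31 array, which leaves the brightest as the one probe set of VEGFA past 2-fold with both arrays above it. LOX, the lysyl oxidase that cross-links collagen, had 432 in the miR-31 array and 191 in the control array (1.12), and 163 and 102 on its second kept probe set (0.60). The remaining LOX probe set was under the level minimum and lower, at 9.68 in the miR-31 array and 34.6 in the control array. The LOX value lay just under 2-fold with quantile normalization (0.98), with a level trend removed (0.997) and with a pseudocount of 64 (0.96).

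STC1, a secreted glycoprotein hormone first known from fish calcium balance, was the lowest of the 35. It had 1154 in the miR-31 array and 1967 in the control array (-0.76), and its other probe sets had -0.54 and -0.50, so all 3 were lower. STC2, its relative, had 132 in the miR-31 array and 172 in the control array (-0.35), but its second probe set had the opposite sign (0.36). The secreted genes therefore did not move as a block: VEGFA and LOX stood on one side of 0 and STC1 on the other. ADM, the vasodilator peptide adrenomedullin, had 617 in the miR-31 array and 619 in the control array, a ratio of -0.0035. P4HA1 and P4HA2 encode catalytic subunits of the enzyme that hydroxylates proline in collagen. P4HA1 had 4404 in the miR-31 array and 4077 in the control array (0.11). P4HA2 had 2529 in the miR-31 array and 1962 in the control array (0.36), and 0.71 on its second probe set. ANGPTL4, a secreted inhibitor of lipoprotein lipase, was dim on both arrays, at 34.4 in the miR-31 array and 35.5 in the control array. The median of the 7 secreted and matrix genes compared was 0.11, with 4 above 0 and 3 below.

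**Figure D2:**
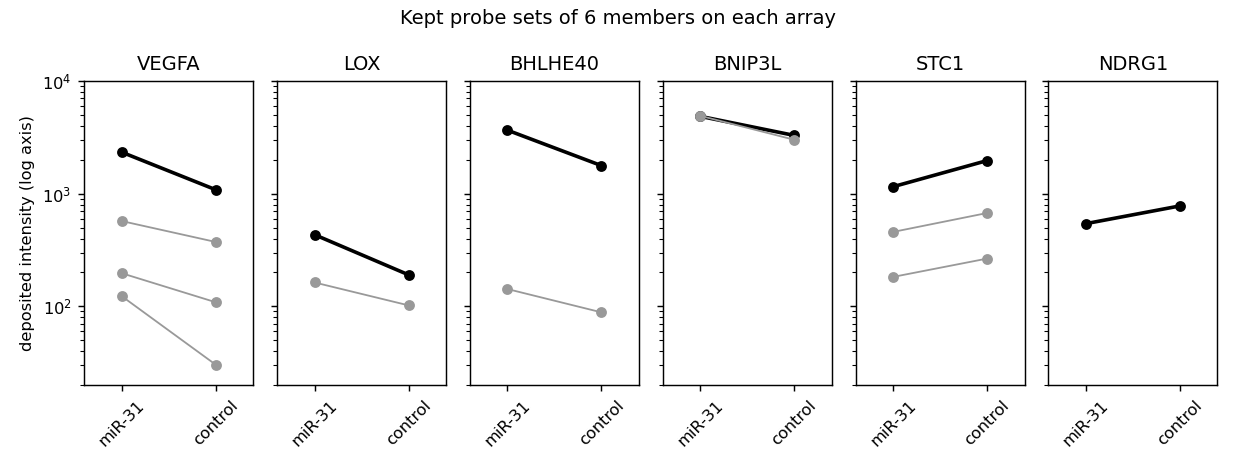
Deposited intensity (log axis) of every kept probe set of 6 genes in the miR-31 array (left) and the control array (right), with the brightest probe set in black and the others in grey. All kept probe sets of VEGFA, LOX, BHLHE40 and BNIP3L were brighter in the miR-31 array, and all of STC1 and the single one of NDRG1 were dimmer there.

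Genes of feedback, transcription and mitochondrial removal were mostly close to 0 apart from BHLHE40 and BNIP3L, which were higher, and NDRG1, which was lower. BHLHE40, a helix-loop-helix repressor of clock and differentiation genes also called DEC1, had 3661 in the miR-31 array and 1776 in the control array (1.04). Its second probe set had 142 in the miR-31 array and 88.5 in the control array (0.60). Both were higher, and the brighter one passed 2-fold by a narrow margin. BNIP3L, a mitochondrial receptor for autophagy also called NIX, had 4860 in the miR-31 array and 3291 in the control array (0.56), and 4910 and 3010 on its second probe set (0.70). BNIP3, the closely related receptor and a well known HIF target, had 7938 in the miR-31 array and 8334 in the control array (-0.07), and 0.14 on its second probe set. The probe sets of these relatives did not overlap in ratio, and the brightest ones were 0.63 apart on the log2 scale.

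The oxygen-sensing hydroxylases, which are HIF targets as well as its brakes, differed little on their brightest probe sets. EGLN1 (PHD2) had 3027 in the miR-31 array and 3128 in the control array (-0.05), and its 3 kept probe sets were all slightly lower, down to -0.34. EGLN3 (PHD3) was dim, at 112 in the miR-31 array and 90.1 in the control array (0.27). Its other probe set was under the level minimum, at 79.5 in the miR-31 array and 46.8 in the control array (0.60). NDRG1, a stress-induced gene used as a hypoxia marker, was lower on its only probe set, at 542 in the miR-31 array and 779 in the control array (-0.51). ANKRD37, a small ankyrin-repeat gene strongly induced by HIF, had 764 in the miR-31 array and 818 in the control array (-0.10). KDM3A, a histone H3 lysine demethylase, had 0.06, and MXI1, an antagonist of MYC, had -0.14. The median of the 9 genes was -0.05, with 4 above 0 and 5 below.

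The metabolic targets of HIF, which bring in glucose, steer it and handle acid, held no gene past 1.5-fold, with CA12 at the edge. Most genes were alike in this, with 9623 of all 11792 within 1.5-fold. SLC2A1, the glucose transporter GLUT1, had 2192 in the miR-31 array and 2352 in the control array (-0.10), with 0.33 on its dimmer probe set. SLC2A3, the neuronal type transporter GLUT3, had 309 in the miR-31 array and 316 in the control array (-0.03), and 0.63 on its dimmest probe set. A further 2 probe sets carry SLC2A3 together with its near copy SLC2A14, and had 244 and 239.6 in the miR-31 array and 168 and 239.7 in the control array. Neither transporter thus had probe sets of one direction. HK2, the hexokinase that traps glucose in the cell, had 908 in the miR-31 array and 1124 in the control array (-0.30), and its 3 probe sets were all lower, between -0.42 and -0.30. PDK1, a kinase that inhibits pyruvate dehydrogenase inside the mitochondrion, had 1228 in the miR-31 array and 949 in the control array (0.37), with 0.27 and -0.04 on its other probe sets.

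PFKFB3 and PFKFB4 make the activator of phosphofructokinase. PFKFB4 had 1676 in the miR-31 array and 1307 in the control array (0.35), and PFKFB3 had 0.10. CA12, a surface carbonic anhydrase, had 109 in the miR-31 array and 165 in the control array (-0.53). Only 2 of its 7 probe sets passed the level minimum, both lower. CA12 was past 1.5-fold lower with a pseudocount of 1 (-0.59), quantile normalization (-0.67), a level trend removed (-0.66) or ratios centred on hybridisation controls (-0.72), and on poly-A controls it was past 2-fold (-1.09). The median of the 7 metabolic genes was -0.03, with 3 above 0 and 4 below, and it was 0.34 when probe sets named _s_at or _x_at were left out.

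The enzymes of glycolysis differed little at any step. GAPDH, the dehydrogenase often used as a reference gene, had 33598 in the miR-31 array and 28585 in the control array (0.23), and its 3 probe sets lay between 0.15 and 0.23. LDHA, which makes lactate from pyruvate, had the highest ratio of the group, with 1925 in the miR-31 array and 1454 in the control array (0.40). PKM, pyruvate kinase, had 5487 in the miR-31 array and 4836 in the control array (0.18), without separating its splice forms. These 3 enzymes were the furthest above 0, and none reached 1.5-fold. PGK1, phosphoglycerate kinase, had 26854 in the miR-31 array and 26254 in the control array (0.03), and 5 of its 6 kept probe sets ran from -0.08 to 0.17, the dimmest having 140.2 in the miR-31 array and 80.2 in the control array (0.70). ALDOA, aldolase A, had 0.07, and the enolases ENO1 and ENO2 (the neuronal form) had -0.02 and -0.03. TPI1, triose phosphate isomerase, had -0.12, and PFKP, the platelet type phosphofructokinase, had the lowest value, with 4239 in the miR-31 array and 4754 in the control array (-0.16). ALDOC, the brain type aldolase, was dim, at 56.8 in the miR-31 array and 15.4 in the control array (1.21), and was not compared. The median of the 9 enzymes compared was 0.03. GAPDH, PGK1, ENO1, ALDOA and TPI1 have near-identical pseudogenes, which their probe sets may also read.

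With other isoenzymes of the same reactions added, 17 enzymes from hexokinase to lactate dehydrogenase all lay within 1.5-fold, between -0.30 (HK2) and 0.40 (LDHA). The dim hexokinase-like gene HKDC1 was left out of these, and at -0.43 it lay below that range but also within 1.5-fold. The median of the 17 was 0.03, with 10 above 0 and 7 below. Of all 11792 genes 9623 also lay within 1.5-fold, and that share was not computed for bright genes alone. The count within 1.5-fold therefore shows nothing particular to these enzymes. GPI, which follows hexokinase, had 5700 in the miR-31 array and 4427 in the control array (0.36). Isoenzymes of one step had small differences of either sign, as for PFKM at 0.28 beside PFKL at -0.11.

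**Figure D3:**
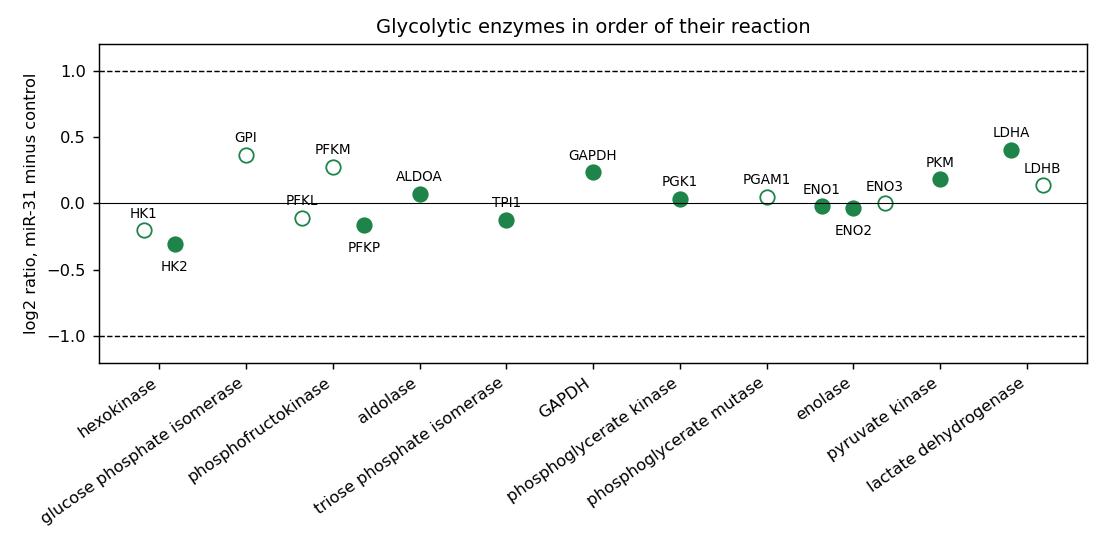
Log2 ratio (miR-31 minus control) of 17 glycolytic enzymes in the order of their reactions, with listed members filled and other isoenzymes open. All points lie between -0.30 and 0.40, inside the dashed lines at 2-fold, and HKDC1 (-0.43) is not drawn.

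The DNA upstream of some of these genes is shown because LOX and BHLHE40, 2 of the 3 genes past 2-fold, hold several copies of the HIF core ACGTG there, as do genes that did not reach 1.5-fold. RefSeq promoter windows (GRCh38.p14, 250 bases before to 50 after the start, the most upstream start of each gene) were found for 33 of the 38 genes; VEGFA, SLC2A3, BNIP3L, NDRG1 and STC1 had none. The core ACGTG was searched on both strands, so CACGT marks it on the other strand and CACGTG is 1 stretch that matches on both. Below, 250 bases before the start are given, 5' to 3' on the gene's strand, with the core in capitals. LOX lies at chr5:122078260-122078509, minus strand. BHLHE40 lies at chr3:4979187-4979436, plus strand. BNIP3 lies at chr10:131981924-131982173, minus strand. ANKRD37 lies at chr4:185396591-185396840, plus strand. LDHA lies at chr11:18394313-18394562, plus strand. PGK1 lies at chrX:78103998-78104247, plus strand.
LOX: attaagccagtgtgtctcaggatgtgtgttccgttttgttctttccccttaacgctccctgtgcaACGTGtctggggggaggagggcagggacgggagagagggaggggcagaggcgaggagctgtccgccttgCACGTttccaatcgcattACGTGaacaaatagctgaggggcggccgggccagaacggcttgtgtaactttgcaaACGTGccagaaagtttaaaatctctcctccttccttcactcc
BHLHE40: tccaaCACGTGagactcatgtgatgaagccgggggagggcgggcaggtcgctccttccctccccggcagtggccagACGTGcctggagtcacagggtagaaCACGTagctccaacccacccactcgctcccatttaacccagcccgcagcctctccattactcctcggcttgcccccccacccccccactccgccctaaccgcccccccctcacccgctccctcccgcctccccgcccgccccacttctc
BNIP3: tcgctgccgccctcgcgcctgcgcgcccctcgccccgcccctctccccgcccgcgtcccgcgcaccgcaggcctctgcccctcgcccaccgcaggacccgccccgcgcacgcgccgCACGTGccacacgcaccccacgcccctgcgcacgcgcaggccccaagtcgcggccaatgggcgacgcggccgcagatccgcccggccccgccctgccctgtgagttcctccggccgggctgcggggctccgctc
ANKRD37: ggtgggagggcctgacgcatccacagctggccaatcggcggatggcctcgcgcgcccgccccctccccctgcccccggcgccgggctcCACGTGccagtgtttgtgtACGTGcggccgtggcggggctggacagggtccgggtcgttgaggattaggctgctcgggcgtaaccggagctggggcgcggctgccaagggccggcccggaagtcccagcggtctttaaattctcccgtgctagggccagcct
LDHA: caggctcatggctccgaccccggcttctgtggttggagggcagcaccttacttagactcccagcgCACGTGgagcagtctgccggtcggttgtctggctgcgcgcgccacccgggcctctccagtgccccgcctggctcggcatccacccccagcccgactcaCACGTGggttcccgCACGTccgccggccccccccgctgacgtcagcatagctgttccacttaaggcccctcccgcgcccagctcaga
PGK1: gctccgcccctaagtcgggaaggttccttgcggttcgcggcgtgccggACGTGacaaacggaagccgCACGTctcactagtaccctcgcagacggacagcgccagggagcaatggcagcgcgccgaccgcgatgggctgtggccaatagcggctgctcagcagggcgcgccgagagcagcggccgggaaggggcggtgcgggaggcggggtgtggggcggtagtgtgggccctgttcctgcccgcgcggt

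In these stretches LOX had 4 runs of capitals, BHLHE40 and LDHA 3 each, ANKRD37 and PGK1 2 each and BNIP3 1. Over the full windows the core was present in 12 of the 30 compared members with a window (40.0%), against 27.1% of 9717 compared genes. Of all 33 members with a window it was present in 15 (45.5%), against 21.6% of all 27305 genes in the table. With GCGTG allowed as well it was present in 76.7% of compared members and 63.3% of compared genes. Many members were listed as known HIF targets, so a higher share of the HIF core among them is no independent result. Among compared members, the 12 with the core had ratios from -0.30 to 1.12 with a median of 0.05, and 2 were at least 2-fold higher. The 18 without it ran from -0.53 to 0.37 with a median of -0.01, and 0 were at least 2-fold higher. Over all compared genes with a window the order was the other way: the median was 0.02 and 2.62% were at least 2-fold higher with the core, against 0.04 and 3.91% without it. A window with 3 or more runs was found in 4 members and 0.70% of compared genes. Those 4 members were LOX (1.12), BHLHE40 (1.04), LDHA (0.40) and PGK1 (0.03), so many copies of the core stood beside both high and near-zero ratios. A match describes letters and is no evidence of binding.

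Other regulators of HIF were also close to 0. Of 10 compared out of 12 listed, 3 were above 0 and 7 below, 0 reached 2-fold, and the median was -0.06. Among all 11792 genes 6272 were above 0 and 11165 lay within 2-fold. The count past 2-fold therefore shows nothing particular to these regulators. HIF1AN, the asparagine hydroxylase FIH and a reported miR-31 target in other cells, had 499 in the miR-31 array and 519 in the control array (-0.06), and its 3 probe sets ran from -0.06 to 0.07. VHL had 441 in the miR-31 array and 483 in the control array (-0.13). EGLN2 (PHD1) was below the level minimum, at 27.2 in the miR-31 array and 4.44 in the control array. The exception was CITED2, a HIF target that competes with HIF for its co-activators, with 1051 in the miR-31 array and 602 in the control array (0.79) and 0.59 on its second probe set. The next largest were CUL2, the cullin of the VHL ligase, and CREBBP, a co-activator, both at -0.23, and ELOB, elongin B, at 0.20.

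Genes reported as HIF targets outside the list went in both directions by larger amounts. Of 25 compared out of 32, 17 were above 0 and 8 below, 1 was at least 2-fold higher and 2 at least 2-fold lower, and the median was 0.18. Of all 11792 genes 6272 were above 0, 3.74% were at least 2-fold higher and 1.58% at least 2-fold lower. The list was written with earlier results of these data known, so its extreme genes may be there because of their values. DDIT4 (REDD1), the stress-induced inhibitor of mTORC1, had 8096 in the miR-31 array and 940.4 in the control array (3.08), on 1 probe set. MAFF, a small leucine zipper factor, had 881 in the miR-31 array and 2784 in the control array (-1.64), with -0.60 on its second probe set. EDN1, the vasoconstrictor endothelin 1, had 187 in the miR-31 array and 549 in the control array (-1.48), and 129 and 776 on its second probe set (-2.45). These targets thus included genes far on either side of 0. IGFBP3, a carrier of insulin-like growth factors, had 242 in the miR-31 array and 113 in the control array (0.998), just under the threshold.

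Genes around pyruvate and the remaining glycolytic genes were slightly above 0. Of 18 compared out of 23, 12 were above 0 and 6 below, 1 was at least 2-fold higher and 0 lower, and the median was 0.13. Of all 11792 genes 6272 were above 0 and 3.74% were at least 2-fold higher. Earlier results of these data were also known when this list was written. PDK4, a pyruvate dehydrogenase kinase, had 257 in the miR-31 array and 66.9 in the control array (1.72) on its single kept probe set. PDK2, of the same family, had 326 in the miR-31 array and 201 in the control array (0.66), with 0.51 on its second probe set. PGM1, which links glucose 6-phosphate to glycogen, had 3987 in the miR-31 array and 2355 in the control array (0.76). HKDC1, a hexokinase-like gene, was dim and had 57.2 in the miR-31 array and 82.6 in the control array (-0.43).

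**Figure D4:**
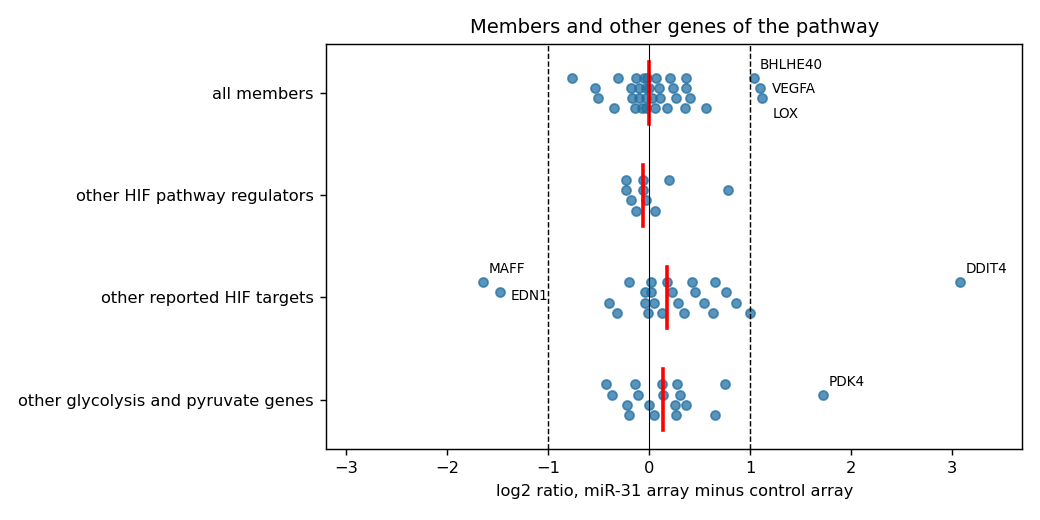
Log2 ratio (miR-31 minus control) of the 35 members compared and of 3 lists of other genes of the pathway, 1 point a gene, with the median of each list as a red bar and names at genes past 2-fold. The medians were -0.0035, -0.06, 0.18 and 0.13 from top to bottom.

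Centred on the 18 bacterial hybridisation controls, VEGFA was at 0.90, LOX at 0.93 and BHLHE40 at 0.85. With the mean of kept probe sets VEGFA was at 1.01, LOX at 0.86 and BHLHE40 at 0.82. On poly-A controls VEGFA was at 0.54, LOX at 0.57 and BHLHE40 at 0.49. These genes were picked for ratios above 1, and centring shifts every gene alike, the largest shift being -0.55. That they stayed above 0 wherever they had a value is therefore little of a check. Among the 21 members with at least 2 kept probe sets, all probe sets had one sign in 11 and signs differed in 10. The 11 were VEGFA, LOX, BHLHE40, BNIP3L, P4HA2, STC1, HK2, CA12, EGLN1, GAPDH and PKM. The same share over all genes was not computed, so the count shows no agreement particular to these genes.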

How the data were processed

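The deposited table holds a linear intensity for each of 54675 probe sets on 2 arrays. Neither the labels nor the file name the software by which the authors made these values. RNA was extracted with trizol and labelled with biotin, per the labels' protocols. The number of arrays limits the precision, and no detection calls were used.

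Intensities were taken as log2(intensity + 16) and subtracted, miR-31 minus control. Gene names came from the platform annotation, by probe sets with 1 symbol (41097); the 62 control probe sets were left out. A gene's probe set of highest mean log2 level represented it, and it was compared if that level reached the median over the remaining probe sets (an intensity of 62.6). Higher and lower mean at least 2-fold, 1.5-fold being an alternative, and no p-value was computed. All 38 members are named. Of each list of other pathway genes up to 4 with the largest absolute ratio were named, plus HIF1AN, VHL and EGLN2; GPI, PFKM, PFKL and the marker genes were named after their values were seen. The members and lists were chosen with earlier results of these data known. The calculation was tested on simulated data. The changes put in were all larger than the ratios of the members past 2-fold, so changes near that threshold were not covered. Alternatives covered scaling, pseudocount, level filter and probe set choice. Python 3.11.15, numpy 2.4.6, pandas 2.3.3, statsmodels 0.14.6 and matplotlib 3.10.9 were used.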

Additional observations from a re-analysis of the deposited data

Results flagged for a closer look

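Some member probe sets that the comparison did not use, because a brighter one stood for the gene, exceeded 2-fold in favour of the miR-31 array. The dimmest kept probe set of VEGFA had an intensity of 123 in the miR-31 array and 30.4 in the control array, a log2 ratio of 1.58, with the 3 others of the gene between 0.60 and 1.09. The dimmest of ENO1 had 120.3 in the miR-31 array and 39.0 in the control array (1.31), while its 3 brighter probe sets lay between -0.02 and 0.10. In the control array both read under 62.6, the level minimum.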

How the results depend on the processing

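No paired analysis was possible because there is 1 array a group, which also leaves no replicate to drop. The number of members at least 2-fold higher, 3, became 0 with ratios centred on hybridisation controls, and 0 on a scale set by the 24 poly-A controls (a shift of -0.55 for every gene). It became 1 with the mean of probe sets and 1 without probe sets named _s_at or _x_at, where the gene was ENO1 and VEGFA, LOX and BHLHE40 had no probe set left. Under the other settings it was between 2 and 4, the fourth being ALDOC without a level filter. The number at least 2-fold lower, 0, became 3 (CA12, NDRG1 and STC1) on the poly-A scale and 1 at 1.5-fold. On that scale the median of all members became -0.55, and those of the HIF factors -0.58, secreted and matrix genes -0.44, metabolic targets -0.58, feedback genes and regulators -0.60 and glycolytic enzymes -0.52, with all genes at -0.52. The metabolic median became 0.34 without _s_at and _x_at probe sets. Medians moved by less than the noise SD (0.34) under every other setting, though several, lying near 0, had the other sign. Values of single members moved by more than that SD in 40 of 365 cases. These cases include every member on the poly-A scale, where the shift of -0.55 alone exceeds that SD. The sign changed in 0 of the 3 genes past 2-fold, which is little of a check for genes picked for ratios above 1. Of all genes past 2-fold 70.3% were higher, against 57.2% after quantile normalization, 59.0% after trend removal, 42.0% on hybridisation controls and 8.84% on poly-A controls.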

Other observations

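Genes that store glucose as glycogen, picked out after their values were seen, were all above 0. PGM1 had a log2 ratio of 0.76, the synthase GYS1 0.77, the branching enzyme GBE1 0.46 and the phosphatase subunit PPP1R3C 0.64. GYS1 had an intensity of 789 in the miR-31 array and 457 in the control array, and GBE1 had 11811 in the miR-31 array and 8581 in the control array. None of the 4 reached 2-fold, and 3 passed 1.5-fold, beside 11.7% of all genes that were at least 1.5-fold higher. Because the 4 were picked by their values, nothing can be read from that difference. Each was read by 1 kept probe set.

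The pyruvate dehydrogenase kinases, also grouped after their values were seen, were all above 0 as well on their brightest probe sets. PDK1 was at 0.37, PDK2 at 0.66, PDK3 at 0.31 and PDK4 at 1.72. PDK1 had -0.04 on another kept probe set, and PDK4 rested on 1 kept probe set near the level minimum in the control array. All 5 probe sets of PDK3 were higher, between 0.16 and 0.39. The subunits of the enzyme they inhibit had -0.21 (PDHA1) and 0.13 (PDHB). PDK1, PDK3 and GBE1 would lie below 0 after the shift of -0.55 that centring on the poly-A controls gives.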
